A study of Homo sapiens with 8 samples.

Results

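The desmosomal genes examined here were 10 genes that encode the building blocks of the desmosome: the desmogleins DSG2 and DSG3, the desmocollins DSC2 and DSC3, plakoglobin (JUP), the plakophilins PKP1, PKP2 and PKP3, desmoplakin (DSP) and the tetraspan membrane protein PERP. They were found by their symbol among the 58870 genes of the deposited table. All 10 passed the filter on low counts, which left 14785 genes for testing. RNA had been sequenced from 8 samples of a human cell line, CFPAC-1, which was established from a pancreatic ductal adenocarcinoma. Of these, 4 carried an empty vector and 4 carried an ADRA2A transgene. ADRA2A encodes the alpha-2A adrenergic receptor, which couples mainly to Gi proteins and lowers cyclic AMP. All samples were grown for 72 hours in IMDM with serum and antibiotics and received no treatment, so no agonist of the receptor was added. The labels name neither the promoter of the transgene nor whether the cells were clones or pools, and they do not say whether the samples of a group were separate cultures. The p-values therefore measure the spread between these samples, which may be technical. Since RNA was taken from whole cultures, less RNA per cell and fewer cells that express a gene cannot be told apart.

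Desmosomes are spot-like junctions that tie the keratin filaments of neighbouring epithelial cells together. Desmogleins and desmocollins are cadherins that reach across the gap between the cells. Inside the cell their tails bind plakoglobin and plakophilins, which in turn hold desmoplakin, and desmoplakin grips the keratins. Simple epithelia such as pancreatic ducts are known for DSG2, DSC2 and PKP2, whereas DSG3, DSC3 and PKP1 are known from stratified epithelia such as skin and the lining of the mouth.

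Library totals lay between 14427040 and 17528910 counts. ADRA2A had 0 counts in each empty-vector library and between 112 and 172 counts in the ADRA2A libraries, as the labels state. The cells expressed the epithelial markers EPCAM, CDH1, KRT7, KRT8, KRT18, KRT19 and SOX9 in both groups, with means of at least 113 CPM (read counts scaled to library size), whereas the duct channel gene CFTR had 0.708 ± 0.309 CPM with the empty vector and 0.431 ± 0.122 CPM with the transgene (SD, n = 4 each). By edgeR's quasi-likelihood test, 6314 of the genes tested, or 42.7%, passed an adjusted p-value of 0.05 (Benjamini-Hochberg). Of all genes tested, 21.6% were called higher in the ADRA2A cells and 21.1% lower. For 39.2% of the genes all libraries of 1 group lay above those of the other. These shares are the background for each count of desmosomal genes and of the other gene lists.

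In the ADRA2A cells 5 of the 10 desmosomal genes fell, 2 rose and 3 were not called. DSG2, DSC2, DSP, PKP2 and PKP1 fell, JUP and PERP rose, and DSG3, DSC3 and PKP3 missed the threshold. The 7 genes called are 70% of the members, beside 42.7% of all genes tested. The same 7 genes were those whose libraries did not overlap between the groups, beside 39.2% of all genes tested. All of these but PKP1 lay between percentiles 82.3 and 99.2 of mean empty-vector CPM. Their share was not compared with that of genes at a like level. The members were also chosen with earlier results of these data known. The median log2 fold change of the 10 genes was -0.18, beside 0.00 for all genes tested, and their median absolute log2 fold change was 0.26, beside 0.18. Among called genes alone, the median absolute log2 fold change was 0.28 for the members and 0.31 for all genes. No member (0 of 10) reached an absolute log2 fold change of 1. The CPM of the 10 genes summed to 2216 in the empty-vector cells and 2210 in the ADRA2A cells on average, and these sums overlapped between the groups, with ranges of 2194 to 2236 and 2190 to 2234.

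**Figure D1:**
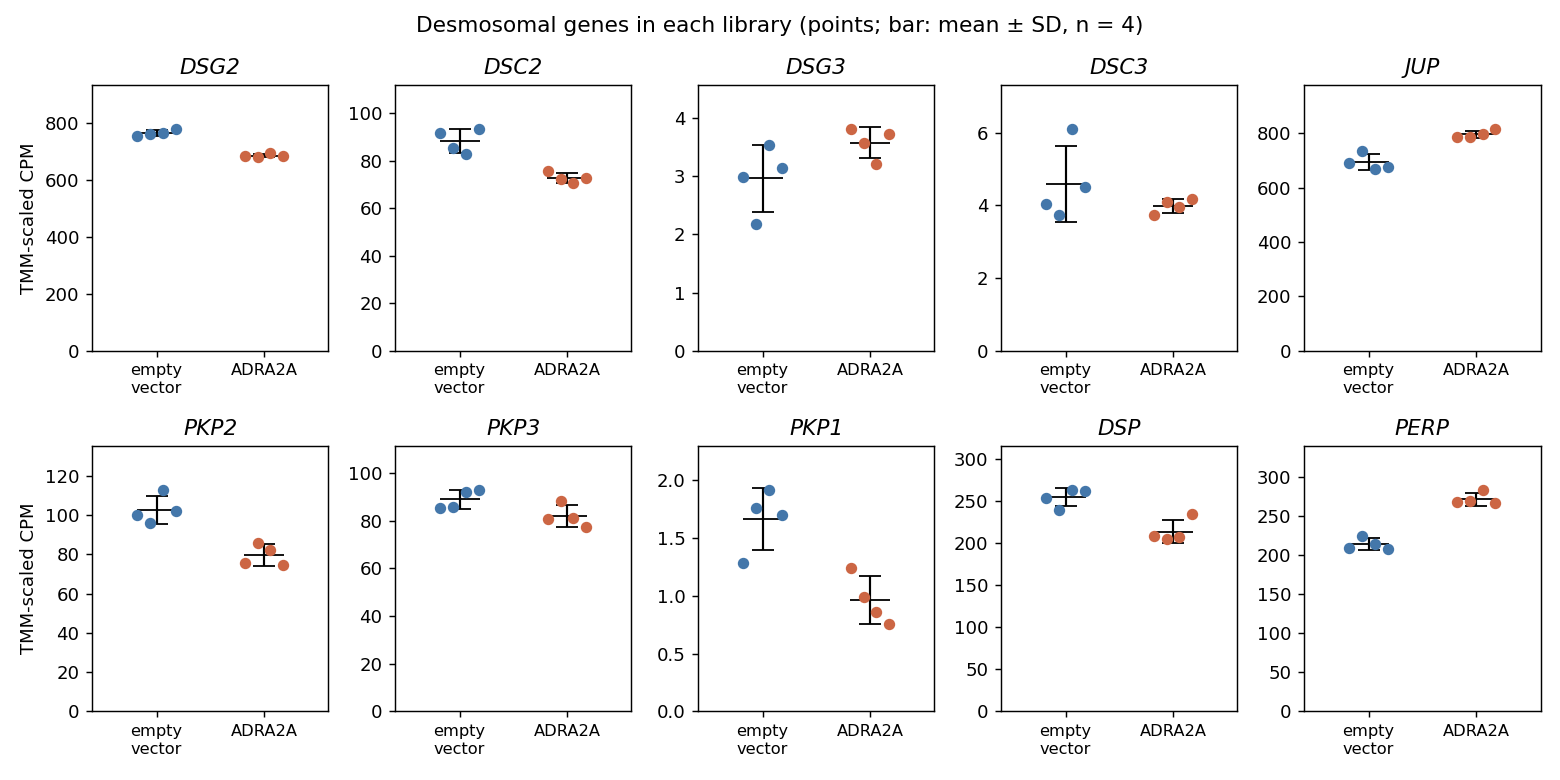
TMM-scaled CPM of each desmosomal gene (vertical axis, starting at 0) in the 4 empty-vector and 4 ADRA2A libraries; each point is a library, and the bars give the mean ± SD. The ADRA2A points lie below all empty-vector points for DSG2, DSC2, PKP2, PKP1 and DSP, and above them for JUP and PERP. For DSG3, DSC3 and PKP3 the groups overlap, with 3 ADRA2A points of DSG3 above and 3 of PKP3 below the empty-vector range.

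The cadherins were dominated by the isoforms of simple epithelia. DSG2 (ENSG00000046604.13; GRCh38 chromosome 18, 31498177 to 31549008, plus strand), the desmoglein present in all tissues with desmosomes, had 755, 763, 766 and 778 CPM in the empty-vector libraries and 686, 680, 694 and 685 CPM in the ADRA2A libraries. Every ADRA2A library lay below every empty-vector library. The mean fell by 10.4%, from 766 ± 9.72 to 686 ± 5.83 CPM (SD, n = 4 each). On the log2 scale the difference was -0.16 ± 0.03 (SE; edgeR quasi-likelihood test, adjusted p = 0.000121). This was the smallest of the 7 called differences, and with 9907 to 13188 counts per library DSG2 was measured at greater depth than the other cadherins.

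DSC2 (ENSG00000134755.16; chromosome 18, 31058840 to 31102522, minus strand), the desmocollin of simple epithelia, had 91.8, 85.2, 82.8 and 93.3 CPM in the empty-vector libraries and 75.6, 72.2, 70.7 and 72.7 CPM in the ADRA2A libraries. The groups did not overlap, and the mean fell by 17.5%. The log2 fold change of DSC2 was -0.28 ± 0.05 (SE; edgeR quasi-likelihood test, adjusted p = 7.55e-05).

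The cadherins of stratified epithelia were rare. DSG3 (ENSG00000134757.5; chromosome 18, 31447741 to 31478702, plus strand), a target of the autoantibodies of pemphigus vulgaris, had 2.99, 2.17, 3.54 and 3.14 CPM in the empty-vector libraries and 3.81, 3.56, 3.21 and 3.73 CPM in the ADRA2A libraries. The ranges overlapped, since 1 ADRA2A library lay below the highest empty-vector library. The log2 fold change of DSG3 was 0.26 with a 95% confidence interval from -0.13 to 0.66 (edgeR quasi-likelihood test, adjusted p = 0.283), at 32 to 61 counts per library. It was 0.15 without empty-vector replicate 2, the library with the lowest value.

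DSC3 (ENSG00000134762.17; chromosome 18, 30989365 to 31042815, minus strand), the desmocollin of basal layers, had 4.04, 3.73, 6.10 and 4.52 CPM in the empty-vector libraries and 3.74, 4.09, 3.95 and 4.17 CPM in the ADRA2A libraries. Empty-vector replicate 3 stood above the other 7 libraries, and the rest overlapped. The log2 fold change was -0.21 with a 95% confidence interval from -0.57 to 0.15 (edgeR quasi-likelihood test, adjusted p = 0.347), and without that library it was -0.04. At 54 to 105 counts per library no difference in DSC3 was detectable.

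Promoter sequence is shown for DSG2, for its rare paralog DSG3 and for PERP, because these are the members whose start is the same base in RefSeq and in GENCODE, and because they stand for a gene that fell, one that was not called and one that rose. RefSeq promoter entries (GRCh38.p14) were matched for 8 of the 10 genes, all but PKP2 and PKP3. Each window holds the 250 bases before the gene's start in RefSeq, written 5′ to 3′ on the gene's strand. For DSP this start lies 333 bases inside the gene as annotated in GENCODE, so the whole window lies within that gene. For JUP, DSC2, DSC3 and PKP1 it lies 220, 101, 73 and 54 bases inside, so part of each window does. Capitals mark the motifs found.

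DSG2 (chr18:31497927-31498176, plus strand): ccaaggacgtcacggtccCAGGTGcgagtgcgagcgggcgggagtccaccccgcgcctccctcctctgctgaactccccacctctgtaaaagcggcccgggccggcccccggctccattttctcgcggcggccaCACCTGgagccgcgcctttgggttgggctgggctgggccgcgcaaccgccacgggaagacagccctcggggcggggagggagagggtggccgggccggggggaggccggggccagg

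DSG3 (chr18:31447491-31447740, plus strand): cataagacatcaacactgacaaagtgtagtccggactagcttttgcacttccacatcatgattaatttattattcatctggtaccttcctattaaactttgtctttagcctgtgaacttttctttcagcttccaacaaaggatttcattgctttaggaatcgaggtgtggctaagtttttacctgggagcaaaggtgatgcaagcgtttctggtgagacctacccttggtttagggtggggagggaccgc

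PERP (chr6:138107420-138107669, minus strand): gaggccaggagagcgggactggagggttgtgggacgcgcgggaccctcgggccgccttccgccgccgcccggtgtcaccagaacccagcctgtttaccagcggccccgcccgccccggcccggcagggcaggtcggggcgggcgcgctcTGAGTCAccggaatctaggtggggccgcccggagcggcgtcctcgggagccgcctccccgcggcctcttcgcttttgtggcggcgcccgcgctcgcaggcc

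The DSG2 window is 75.2% G or C and holds 26 CpG dinucleotides, and the PERP window is 77.2% G or C with 34 CpG. The DSG3 window is 42.8% G or C with 4 CpG, beside medians of 58% and 11 over 35116 RefSeq promoter windows. Searched on both strands, the E-box CACCTG, bound by SNAI and ZEB factors, occurred in 3 of the 8 windows, beside 17.5% of all windows. There were 2 copies in DSG2, 2 in DSP and 1 in DSC2, and those in DSP lie within the gene as annotated in GENCODE. The AP-1 motif TGANTCA occurred in 1 of the 8, that of PERP, beside 6.57% of all windows. The GRHL motif AACCNGTT and the TEAD motif GGAATG occurred in 0 of the 8, beside 1.49% and 11.9%. No match overlapped a match of another motif. These matches describe letters in a short window and were not tied to binding of any factor.

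The armadillo proteins of the plaque went both ways. JUP (ENSG00000173801.17; chromosome 17, 41754604 to 41786931, minus strand) encodes plakoglobin, a relative of beta-catenin that binds the tails of desmosomal cadherins and also takes part in adherens junctions. It had 690, 735, 670 and 676 CPM in the empty-vector libraries and 788, 785, 799 and 815 CPM in the ADRA2A libraries. All ADRA2A libraries lay above all empty-vector libraries. The mean was 14.9% higher in the ADRA2A cells, a log2 fold change of 0.20 ± 0.03 (SE; edgeR quasi-likelihood test, adjusted p = 4.89e-05).

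Among the plakophilins, which bind desmoplakin and cluster the cadherins laterally, PKP2 (ENSG00000057294.14; chromosome 12, 32790745 to 32896798, minus strand) is the one of simple epithelia and heart muscle. It had 99.8, 96.0, 113 and 102 CPM in the empty-vector libraries and 75.7, 86.0, 82.2 and 74.6 CPM in the ADRA2A libraries. The groups were separate, and the mean fell by 22.4%, a log2 fold change of -0.37 ± 0.05 (SE; edgeR quasi-likelihood test, adjusted p = 1.73e-05).

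PKP3 (ENSG00000184363.10; chromosome 11, 392614 to 404908, plus strand), a plakophilin of most simple and stratified epithelia, had 85.1, 85.6, 91.8 and 92.8 CPM in the empty-vector libraries and 80.6, 88.1, 81.2 and 77.3 CPM in the ADRA2A libraries. ADRA2A replicate 2 lay within the empty-vector range and the other 3 ADRA2A libraries below it. The log2 fold change of PKP3 was -0.12, with a 95% confidence interval from -0.22 to -0.02 that is not adjusted for the number of genes, and its adjusted p-value was just over the threshold (edgeR quasi-likelihood test, adjusted p = 0.0511). It passed without empty-vector replicate 1 (adjusted p = 0.0383, edgeR), without empty-vector replicate 2 (0.0429) and without ADRA2A replicate 2 (0.0159), and the adjusted p over all 15 alternatives lay between 0.0159 and 0.152.

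PKP1 (ENSG00000081277.12; chromosome 1, 201283452 to 201332993, plus strand), the plakophilin of stratified epithelia, was close to the limit of detection, with 22, 26, 33 and 26 counts in the empty-vector libraries and 18, 15, 15 and 12 counts in the ADRA2A libraries. In CPM these were 1.29, 1.76, 1.92 and 1.70 against 1.25, 0.990, 0.859 and 0.759, so the groups were separated by a narrow gap. The log2 fold change of PKP1, -0.79 ± 0.28 (SE; edgeR quasi-likelihood test, adjusted p = 0.0258), was the largest of the 10 genes and the least precise. The call rested on single libraries: it was lost without any one of empty-vector replicates 2, 3 and 4 and ADRA2A replicates 3 and 4, with adjusted p-values from 0.0539 to 0.0801 in edgeR, and with DESeq2 (adjusted p = 0.0504). With no filter on low counts it was lost as well (edgeR adjusted p = 0.0583).

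DSP (ENSG00000096696.14; chromosome 6, 7541338 to 7586714, plus strand) encodes desmoplakin, the link from the plaque to the keratins. It had 254, 239, 263 and 262 CPM in the empty-vector libraries and 208, 205, 207 and 234 CPM in the ADRA2A libraries. ADRA2A replicate 4 stood above the other 3 ADRA2A libraries but below each empty-vector library. The mean fell by 16.1%, from 255 ± 11.0 to 214 ± 13.9 CPM (SD, n = 4 each). On the log2 scale the difference was -0.25 ± 0.04 (SE; edgeR quasi-likelihood test, adjusted p = 0.000101).

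PERP (ENSG00000112378.12; chromosome 6, 138088505 to 138107419, minus strand) encodes a membrane protein that is a transcriptional target of p63 and is needed for desmosome assembly in stratified epithelia. It had 209, 224, 215 and 207 CPM in the empty-vector libraries and 267, 269, 283 and 266 CPM in the ADRA2A libraries. The groups were well apart, and the mean was 26.9% higher in the ADRA2A cells. With a log2 fold change of 0.34 ± 0.04 (SE; edgeR quasi-likelihood test, adjusted p = 2.19e-07), PERP had the smallest p-value of the 10 genes. TP63, the gene of p63, had 0.525 ± 0.135 CPM with the empty vector and 0.770 ± 0.324 CPM with the transgene (SD, n = 4 each) and was not called.

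**Figure D2:**
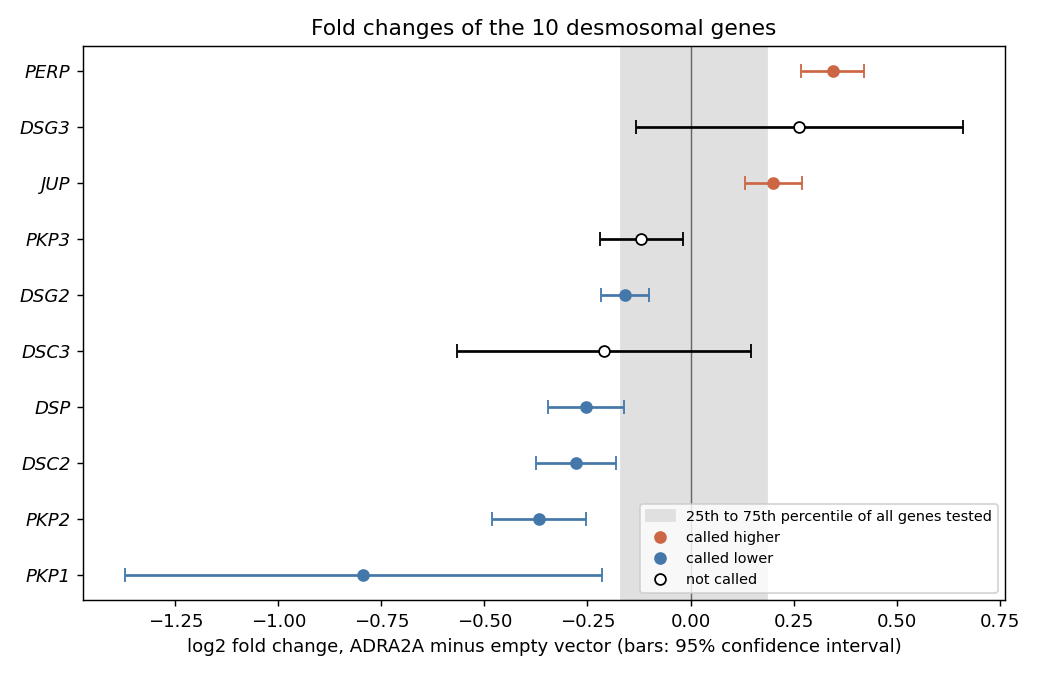
Log2 fold change of each desmosomal gene (horizontal axis, ADRA2A minus empty vector) with its 95% confidence interval, not adjusted for the number of genes; filled points were called at an adjusted p-value under 0.05 and the grey band runs from the 25th to the 75th percentile of all genes tested (-0.17 to 0.19). The points of PERP, DSG3 and JUP lie to the right of the band and those of DSC3, DSP, DSC2, PKP2 and PKP1 to its left. Those of DSG2 and PKP3 lie within it, and the intervals of DSG3, DSC3 and PKP1 are the widest.

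Levels of different genes were compared per length, as CPM per kilobase of annotated exon. In the empty-vector cells the order was JUP at 140.2 ± 5.89, DSG2 at 80.7 ± 1.02, PERP at 50.9 ± 1.80, PKP3 at 23.4 ± 1.07, DSP at 18.7 ± 0.809, PKP2 at 9.98 ± 0.697, DSC2 at 7.06 ± 0.403, DSC3 at 0.597 ± 0.137, DSG3 at 0.531 ± 0.103 and PKP1 at 0.269 ± 0.0433 CPM per kb (SD, n = 4). DSC3 and DSG3 did not differ beyond their spread, and they changed places in the ADRA2A cells, at 0.518 ± 0.0248 and 0.641 ± 0.0478 CPM per kb. The order of the other 8 genes was the same in both groups, and it was also the same when the longest transcript was used as the length. The genes thus fell into 7 that were clearly expressed and 3, those of stratified epithelia, that stayed under 1 CPM per kb in each library.

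**Figure D3:**
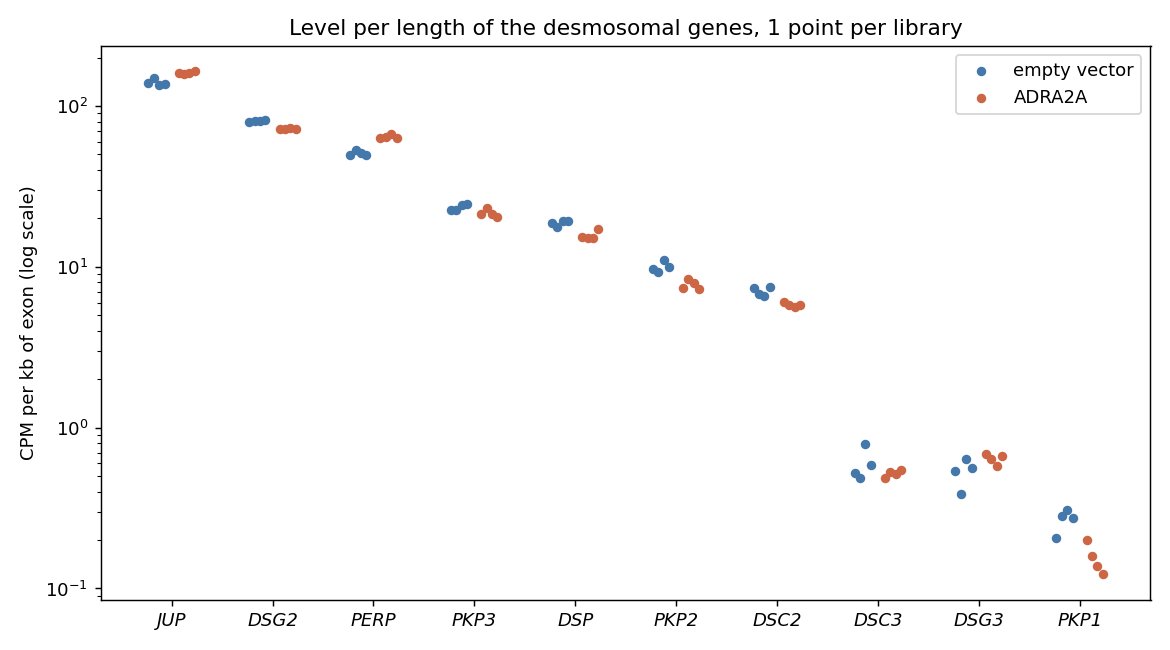
Level per length of each desmosomal gene (vertical axis, CPM per kb of exon on a log scale), with 1 point per library, in the order of the empty-vector means. The levels run from 140.2 CPM per kb for JUP down to 0.269 for PKP1, and the points of DSC3 and DSG3 lie at the same height.

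Proportions between the genes differed between the groups, while the summed CPM overlapped. The 4 cadherins summed to 88.9 ± 1.23 CPM per kb in the empty-vector cells and 79.3 ± 0.543 in the ADRA2A cells (SD, n = 4 each), without overlap. JUP per cadherin was 1.59, 1.69, 1.53 and 1.51 in the empty-vector libraries and 2.01, 2.02, 2.02 and 2.08 in the ADRA2A libraries, a ratio of CPM per kb. Each ADRA2A library thus held more plakoglobin transcript per cadherin transcript than each empty-vector library. Most of the cadherin sum was DSG2, at 80.7 CPM per kb in the empty-vector cells and 72.3 in the ADRA2A cells. With the longest transcript as length the ratio averaged 1.39 and 1.78, again without overlap. The ratio of JUP to DSP was 7.52 ± 0.659 and 10.3 ± 0.483 (SD, n = 4 each), also without overlap.

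Within the plakophilins PKP2 made up 30.0%, 29.0%, 30.9% and 28.6% of the summed CPM per kb in the empty-vector libraries and 25.5%, 26.3%, 27.1% and 26.1% in the ADRA2A libraries. PKP3 took most of the remainder, 69.6% ± 1.02 in the empty-vector cells and 73.2% ± 0.541 in the ADRA2A cells (SD, n = 4 each). These shares depend on the length used for PKP2, and with the longest transcript PKP2 made up 42.5% and 38.4%, again without overlap. Among the desmogleins DSG2 took 99.3% ± 0.125 and 99.1% ± 0.0696, and among the desmocollins DSC2 took 92.2% ± 1.93 and 91.8% ± 0.505 (SD, n = 4 each), and for both the groups overlapped. These proportions are given as descriptions, with no test.

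**Figure D4:**
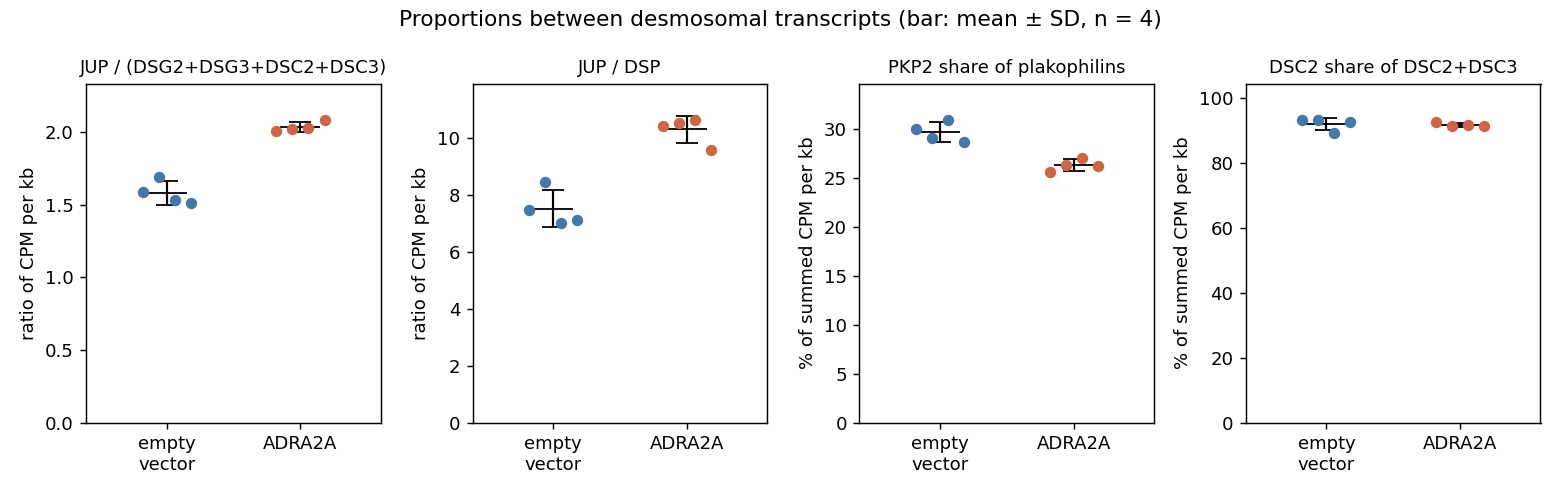
Proportions between desmosomal transcripts by library (vertical axes starting at 0; ratios or percentages of CPM per kb of exon), with bars for the mean ± SD. The ADRA2A points lie above all empty-vector points for JUP per cadherin and JUP per DSP and below them for the PKP2 share, and the DSC2 shares overlap.

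The 4 cadherin genes share a locus of 559.6 kb on chromosome 18, from 30989365 to 31549008. Of 32 other tested genes within 5 Mb, 25 had a log2 fold change under 0 and 7 above it, with a median of -0.14. By the test 12 were lower and 3 higher, so 46.9% were called, beside 42.7% of all genes. DSG2, at -0.16, lay near that median, with 14 of the 32 neighbours lower than it, and for DSC2, at -0.28, 9 of the 32 were lower. DSG3, at 0.26, lay above 30 of the 32. Among the neighbours DTNA (dystrobrevin alpha; -2.03), FHOD3 (a formin; -0.64) and CHST9 (a sulfotransferase; -0.59) fell with the smallest p-values, and RNF125 (a ubiquitin ligase; 0.39), ZNF396 (0.45) and the cadherin gene CDH2 (0.09) rose. The calls of these 3 were lost without some single libraries: RNF125 without any one of empty-vector replicates 1, 3 and 4 and ADRA2A replicates 2 and 4 (adjusted p up to 0.17 in edgeR), ZNF396 without empty-vector replicate 1 or 4 or ADRA2A replicate 1, 2 or 3 (up to 0.167), and CDH2 without empty-vector replicate 1, 3 or 4 or ADRA2A replicate 1, 2 or 3 (up to 0.137). The call was also lost with voom for RNF125 (0.0502), with DESeq2 (0.061) and upper quartile factors (0.0554) for ZNF396, and with upper quartile factors (0.101) and no filter (0.0847) for CDH2. Whether the fall of DSG2 and DSC2 belongs to a shift of the whole stretch was not tested. Within 2 Mb there were 7 genes, with a median of -0.068, of which 1 was called lower and 1 higher (28.6% called). Within 10 Mb there were 54 genes, with a median of -0.18, of which 47 had a log2 fold change under 0 and 7 above it. Of these 54, 25 were called lower and 3 higher, so 51.9% were called.

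**Figure D5:**
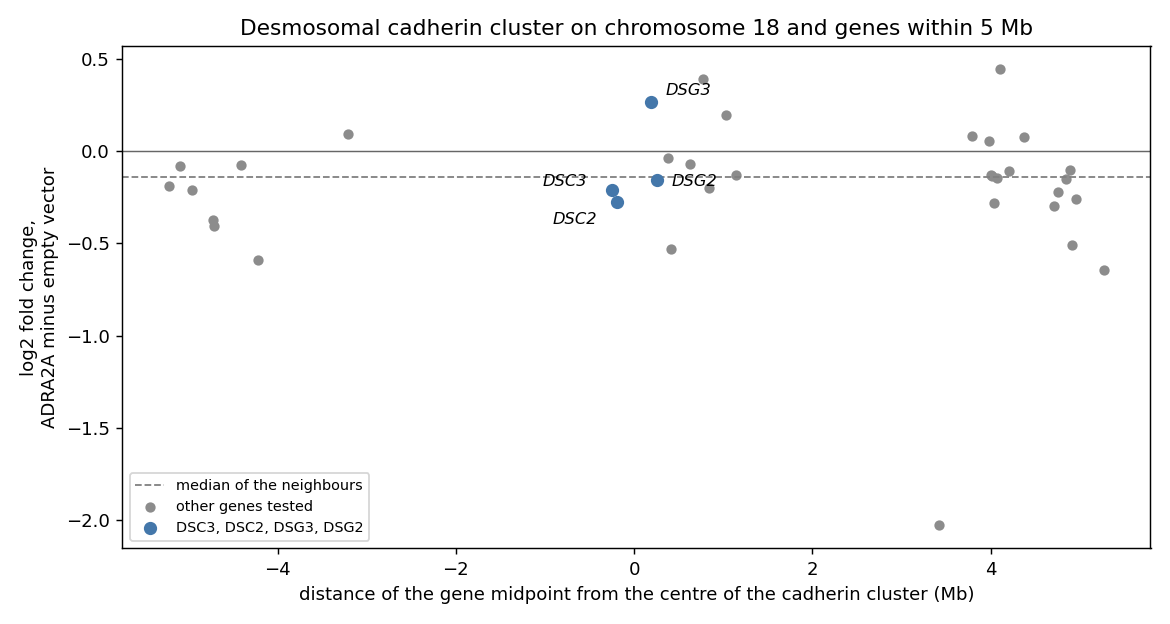
Log2 fold change (vertical axis, ADRA2A minus empty vector) of the 4 desmosomal cadherin genes and of the 32 other tested genes within 5 Mb, by distance of the gene's midpoint from the centre of the cluster in Mb. DSG2 lies close to the dashed median of the neighbours (-0.14) and DSG3 above it, and the lowest point is DTNA at -2.03.

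Within 5 Mb of PKP2 the 24 other genes tested had a median log2 fold change of -0.14, and 6 were lower and 2 higher, so 33.3% were called, beside 42.7% of all genes. Within 10 Mb of PKP2 the median of 55 genes was -0.0041, with 12 lower and 13 higher. Around DSP the median of 51 genes within 5 Mb was -0.03, with 14 lower and 7 higher (41.2% called). Around JUP that of 190 genes was 0.07, with 37 lower and 63 higher (52.6% called). Around PERP that of 31 genes was -0.05, with 10 lower and 7 higher (54.8% called). For PKP1 the median of 80 neighbours was 0.03 and for PKP3 that of 69 was 0.00. Whether the difference of any of these members belongs to a shift of its stretch was not tested.

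Genes annotated as overlapping a member held few counts. DSP-AS1, antisense to DSP, had at most 10 counts in a library, and DSG2-AS1 had 0 and DSCAS, which overlaps DSC2, at most 1. The remaining desmosomal cadherins, DSG1, DSG4 and DSC1, which belong to skin and hair, did not pass the filter.

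Of 10 further genes tied to desmosomes, 7 were tested, of which 1 was higher, 1 lower and 5 not called. Thus 28.6% were called, beside 42.7% of all genes, and the list's median was -0.03 on the log2 scale. KAZN, which encodes the desmosome-associated protein kazrin, rose from 1.51 ± 0.429 to 3.08 ± 0.504 CPM (SD, n = 4 each; log2 fold change 1.02; edgeR quasi-likelihood test, adjusted p = 0.00208). PNN, which encodes pinin, a protein found at desmosomes and in the nucleus, went from 244 ± 12.8 to 222 ± 2.82 CPM (log2 fold change -0.14; edgeR adjusted p = 0.00738). The cytolinker genes PPL (periplakin) and EVPL (envoplakin), relatives of DSP, had log2 fold changes of -0.03 and 0.01, and PKP4, a more distant relative of the plakophilins, had 0.08. The sign of EVPL flipped with upper quartile factors, where it was -0.0081. None of these 3 genes was called under any alternative.

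Of 21 genes for assembly, transport and shedding of desmosomal proteins 20 were tested. Of these 11 were higher and 4 lower, so 75% were called, beside 42.7% of all genes, and the list's median was 0.21 on the log2 scale. As with the other gene lists, this share was not compared with that of genes at a like level. The list was also chosen with earlier results of these data known. The calcium pumps ATP2A2 of the endoplasmic reticulum and ATP2C1 of the Golgi, which are mutated in the blistering disorders Darier disease and Hailey-Hailey disease, rose by log2 fold changes of 0.26 and 0.28. The flotillins FLOT1 and FLOT2, membrane scaffold proteins, rose by 0.27 and 0.26. The members that fell were EGFR (-0.48), a receptor whose activity loosens desmosomes, SPINK5 (-1.07), an inhibitor of the proteases that cut desmosomes in skin, the arginine methyltransferase gene PRMT1 (-0.19) and the kinesin gene KIF5B (-0.12).

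Among transcription regulators of epithelial genes 18 of 22 were tested, of which 4 were higher, 7 lower and 7 not called. Thus 61.1% were called, beside 42.7% of all genes, and the median of the 18 was -0.11 on the log2 scale. Without ADRA2A replicate 4 the number lower was 4. The repressors that bind the E-box went in opposite directions, since SNAI2 fell from 22.9 ± 1.84 to 12.7 ± 1.15 CPM and ZEB1 rose from 16.6 ± 1.54 to 25.3 ± 2.01 CPM (SD, n = 4 each). KLF5, a factor of proliferating epithelia, was higher by 0.20 on the log2 scale, and the epithelial factor genes ELF3 and CDX2 rose by 0.66 and 1.50. GRHL3 and the splicing factor gene ESRP1 fell, with log2 fold changes of -0.69 and -0.19. GRHL2, a regulator of junction genes, had 119 ± 2.48 and 115 ± 5.21 CPM and was not called (log2 fold change -0.05).

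The keratins that desmosomes anchor did not move as one. Of 6 keratins of simple epithelia, all tested, KRT19 and KRT20 were higher (log2 fold changes 0.20 and 0.87) and KRT7 and KRT18 lower (-0.43 and -0.09). Thus 66.7% were called, beside 42.7% of all genes. The number lower was 1 without any one of empty-vector replicates 2, 3 and 4 and ADRA2A replicates 1 and 4. Of 12 keratins of stratified epithelia 7 were tested. KRT15 and KRT16 were higher (0.33 and 0.27), and KRT5, KRT17 and KRT10 lower (-2.42, -0.69 and -0.21), so 71.4% of the 7 were called. KRT5 was close to the limit of detection, with 26 to 47 counts in the empty-vector libraries and 2 to 11 in the ADRA2A libraries. The number higher was 1 without empty-vector replicate 2 or without ADRA2A replicate 3, where KRT16 was not called, and KRT10 was not called without empty-vector replicate 3 or ADRA2A replicate 1 (edgeR adjusted p up to 0.0658).

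In adherens junctions, the other cadherin junction of these cells, 4 of 12 genes were higher, 2 lower and 6 not called. Thus 50% were called, beside 42.7% of all genes, and the list's median was 0.06 on the log2 scale. The E-cadherin gene CDH1 fell from 412 ± 11.9 to 327 ± 10.9 CPM (SD, n = 4 each; log2 fold change -0.33; edgeR quasi-likelihood test, adjusted p = 1.68e-07), and the P-cadherin gene CDH3 fell from 32.8 ± 3.41 to 25.9 ± 2.08 CPM (log2 fold change -0.34). Among the higher genes were NECTIN1 (0.27), AFDN (0.12) and CTNND1 (0.11), which encodes p120 catenin, a relative of the plakophilins, and CDH2 (0.09). The number higher was 2 without empty-vector replicate 1 or without ADRA2A replicate 1, where AFDN and CDH2 were not called.

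In hemidesmosomes, which fix keratins to the basement membrane, 9 genes were tested, with 3 higher, 2 lower and a median log2 fold change of -0.06. Thus 55.6% were called, beside 42.7% of all genes. COL17A1 (1.19), ITGB4 (0.26) and CD151 (0.12; not called without ADRA2A replicate 3) rose, whereas the laminin gene LAMA3 fell (-0.52). Markers of other cell types were mostly under the filter on low counts, but COL1A1, CD68 and LYZ were not scarce. Of 10 fibroblast markers 3 were tested, and COL1A1 fell from 78.4 ± 1.93 to 23.9 ± 1.22 CPM (SD, n = 4 each) while the summed CPM of the list was 80.1 to 83.9 in the empty-vector libraries and 25.8 to 28.1 in the ADRA2A libraries. COL3A1, PDGFRB, DCN, FAP and THY1 had means of at most 0.201 CPM in either group. The remaining fibroblast markers ACTA2, LUM, COL1A2 and PDGFRA had means of up to 1.88 CPM, that of ACTA2 in the ADRA2A cells. ACTA2 and LUM passed the filter and were not called. Of the leukocyte markers CD3E, CD3D and MS4A1 had 0 counts in all libraries, and the summed CPM of 10 genes, 122 to 134 and 199 to 212, came mostly from CD68 and LYZ. CD68, a lysosomal protein of macrophages, rose from 91.6 ± 2.75 to 114 ± 4.60 CPM, and LYZ, which encodes lysozyme, from 31.9 ± 3.70 to 89.7 ± 7.0 CPM (SD, n = 4 each), while PTPRC, which defines leukocytes, had means of at most 0.113 CPM. Of 8 endothelial markers the sum was 2.23 to 2.92 and 2.97 to 3.67 CPM, and CLDN5, EMCN and TEK were at 0. PECAM1 rose from 0.773 ± 0.300 to 2.44 ± 0.295 CPM and KDR fell from 1.23 ± 0.0604 to 0.482 ± 0.157 CPM (SD, n = 4 each). Whether other cells have a part in the differences of the desmosomal genes was not tested.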

How the data were processed

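RNA from 8 CFPAC-1 samples was sequenced. The authors deposited 1 table of RSEM estimated counts per gene, not scaled between samples, in which 4.61% to 4.90% of the entries of a sample had decimals. Per the submitters' processing notes, cutadapt, STAR, RSEM, DESeq2 and hg38 were used, and versions, strand setting and annotation release are not given in the sources used here. All 8 columns were assigned by the name in each sample's title.

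Counts were rounded, filtered with filterByExpr, scaled by TMM and tested with edgeR 4.0.16 (glmQLFit, glmQLFTest; R 4.3.3) with group as the term, and p-values were adjusted by Benjamini-Hochberg over all 14785 genes. The standard error was the absolute log2 fold change divided by the square root of F, and a 95% interval used its t quantile. Lengths and positions came from GENCODE 44, and promoters from RefSeq. The common biological coefficient of variation was 4.96%. The fit was tested on simulated data. Pairs of replicates differed by more than counting noise (chi-square per degree of freedom 2.15 to 4.56).

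Members and lists were chosen with earlier results of these data known. The genes named were all members, up to 4 called genes per list and direction, and up to 3 neighbours per direction, by smallest p-value, with TP63, GRHL2, KLF5, CDH1, PKP4, PPL and EVPL in any case; CFTR and other cell type markers were named as checks. Alternatives were DESeq2 1.42.0, RLE and upper quartile factors, limma 3.58.1 voom, no filter, at least 50 counts on average, a block for the replicate number, and each library left out in turn. Some genes that this rule names are not reported here. No protein sequence was used here.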

Additional observations from a re-analysis of the deposited data

Results flagged for a closer look

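Of 36 sets of 4 libraries examined (the CPM of each gene and 8 proportions, in each group), 3 had 1 library that stood far from the other 3, and chance gives about 1 in 20. DSP stood at 234 CPM in ADRA2A replicate 4, above the 205 to 208 CPM of the other ADRA2A libraries. Without that library the log2 fold change of DSP was -0.30 rather than -0.25. PERP stood at 283 CPM in ADRA2A replicate 3, and without it the log2 fold change of PERP was 0.32 rather than 0.34. The share of DSC2 in the desmocollins was lowest in empty-vector replicate 3, at 89.3%, the library in which DSC3 had its highest value of 6.10 CPM.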

How the results depend on the processing

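Of the 10 desmosomal genes, DSG2, DSC2, DSP, JUP, PKP2 and PERP kept their direction and call under all 15 alternatives, and DSG3 and DSC3 stayed uncalled. The number of members called was 7 and lay between 6 and 8, through PKP1, which was not called with DESeq2, with no filter (adjusted p = 0.0583) or without 5 single libraries, and was not tested at a mean of 50 counts, and through PKP3, which was called with upper quartile factors (adjusted p = 0.0265), with limma voom (0.0498), at a mean of 50 counts (0.0420) and without 3 single libraries. Over fits without 1 library the number of members was 6 to 8 and that of all genes 5703 to 6042. No member changed direction. EVPL turned to -0.0081 with upper quartile factors, lay between -0.0041 (without empty-vector replicate 3) and 0.034 in the fits without 1 library, and was never called. With a mean of at least 50 counts, 1 of the further desmosome genes was called and 0 were higher, since fewer genes were tested. Leaving out 1 library gave 4 to 7 lower transcription regulators, 1 to 2 lower simple keratins, 1 to 2 higher stratified keratins and 2 to 4 higher adherens junction genes. With the longest transcript as length, DSG2 made up 99.6% and 99.5% of the desmogleins, PKP2 42.5% and 38.4% and PKP3 57.0% and 61.2% of the plakophilins, in the empty-vector and ADRA2A cells. The median of the cadherin neighbours was -0.068 within 2 Mb and -0.18 within 10 Mb. Samples with equal replicate numbers showed no shared deviation, with correlations between -0.04 and 0.07. This cannot tell whether they were handled as pairs. With the replicate number as a block 7 members and 6400 genes were called, and no member changed its call. DSG3, DSC3 and PKP1 had the fewest counts of the members, 12 to 105 per library, and the widest confidence intervals.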
